A study of Homo sapiens with 12 samples.

Results

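The constitutive subunits of the proteasome were followed in the human cell line MDA-MB-231, established from a breast cancer that lacks hormone receptors and HER2, after 24 h with 5 uM SAHA, 2.5 mM pargyline, both drugs or the vehicle DMSO. SAHA (vorinostat) inhibits histone deacetylases, and pargyline inhibits monoamine oxidases and, at high dose, the histone demethylase LSD1. Each of the 4 groups held 3 biological replicates, 1 expression array for each, and all 12 arrays came from this 1 line. The labels call the replicates biological and say no more of their origin, so the p-values measure the spread between these samples. RNA was pooled over each culture, so a lower level per cell and fewer cells with the transcript cannot be told apart. Members were all genes with a probe set listed for that gene alone and with a symbol made of PSMA, PSMC or PSMD and a number, or PSMB1 to PSMB7. They numbered 30 of the 11963 genes measured, 13 in the core particle and 17 in the regulatory particle, and 3 of the 17 (PSMD5, PSMD9 and PSMD10) are assembly chaperones rather than subunits of the finished complex. PSMC3IP, which shares the letters but is a recombination factor, was left out. Both probe sets of PSMA6 are listed for PRORP as well, so PSMA6 is not counted, and PSMC5, PSMD7, PSMD13 and PSMA8 were not analysed here. A gene with several probe sets was read from the one with the highest mean over the 12 arrays.

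The proteasome is the cell's main protease for proteins tagged with ubiquitin. Its core particle is a barrel of stacked rings, in which outer alpha subunits gate the entrance and 3 of the inner beta subunits, PSMB5, PSMB6 and PSMB7, cut proteins. The regulatory particle caps the barrel: a base with a ring of ATPases unfolds the substrate and threads it in, and a lid removes the ubiquitin chain. The transcription factor NFE2L1 (NRF1) is known to raise most subunit genes together when proteasome activity falls short, and breast cancer cells of this kind are often sensitive to proteasome inhibitors.

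All values are log2 intensities, and a level is not compared between genes, because each probe set has its own brightness. The members were bright: their means lay between the 82.3 and the 99.2 percentile of all genes. Array medians were 5.11 to 5.15 with DMSO, 5.20 to 5.27 with SAHA, 5.24 to 5.27 with pargyline and 5.26 to 5.34 with both drugs. Every DMSO array thus had a lower median than every treated array, a difference that cannot be told apart from treatment. The excess of the 3' over the 5' actin control probe set is a sign of RNA integrity. It ran from 0.75 to 0.82 with DMSO, 0.77 to 0.90 with SAHA, 0.62 to 0.96 with pargyline and 0.84 to 0.94 with both drugs. Its part in the results was not tested. Of the mesenchymal and basal genes that mark the line, VIM, CD44, CAV1, AXL and EGFR were bright and SPARC lay at the 64.8 percentile, while ESR1, PGR and CDH1, which this line is known to lack, lay between the 15.7 and the 36.6 percentile. KRT8 and GATA3, luminal genes listed beside them, lay at the 86.9 and 53.5 percentile. Of 8 measured markers of leukocytes, fibroblasts and endothelium, 7 lay between 1.63 and 3.65 on every array, near the floor, and COL1A1 at 6.01 to 6.39.

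With SAHA, 17 of the 30 members fell and 5 rose against DMSO (limma, p adjusted by Benjamini-Hochberg over every gene measured, threshold 0.05). In the core particle 7 of 13 fell and 2 rose, and in the regulatory particle 10 of 17 fell and 3 rose. Over all genes 23.1% fell and 23% rose, and among the 2122 genes at least as bright as the dimmest member 36.8% fell and 34.6% rose. The median change was -0.16 in the core and -0.27 in the regulatory particle, against 0.00 over all genes. Members did not move as 1 block: changes ran from -0.93 (PSMB6) to 0.73 (PSMD3). In 17 members all 3 SAHA arrays lay below all 3 DMSO arrays, and in 6 all lay above, where 26.1% and 26.8% of all genes did so. With each array centred on its median, the median gene with SAHA lay at -0.11, and 8 core and 12 regulatory members fell while 1 in each rose, where 50.5% of all genes fell and 20.1% rose. Upward calls then made up 7.69% of those in the regulatory particle, against 23.1% without centring, 11.1% in the core, against 22.2%, and 28.5% over all genes, against 49.9%. The members that centring added to the falls were PSMB4 (-0.17), PSMC2 (-0.14) and PSMD10 (-0.13). The number of regulatory members that rose was 1 in place of 3 without DMSO replicate 3, SAHA replicate 1 or SAHA replicate 2.

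**Figure D1:**
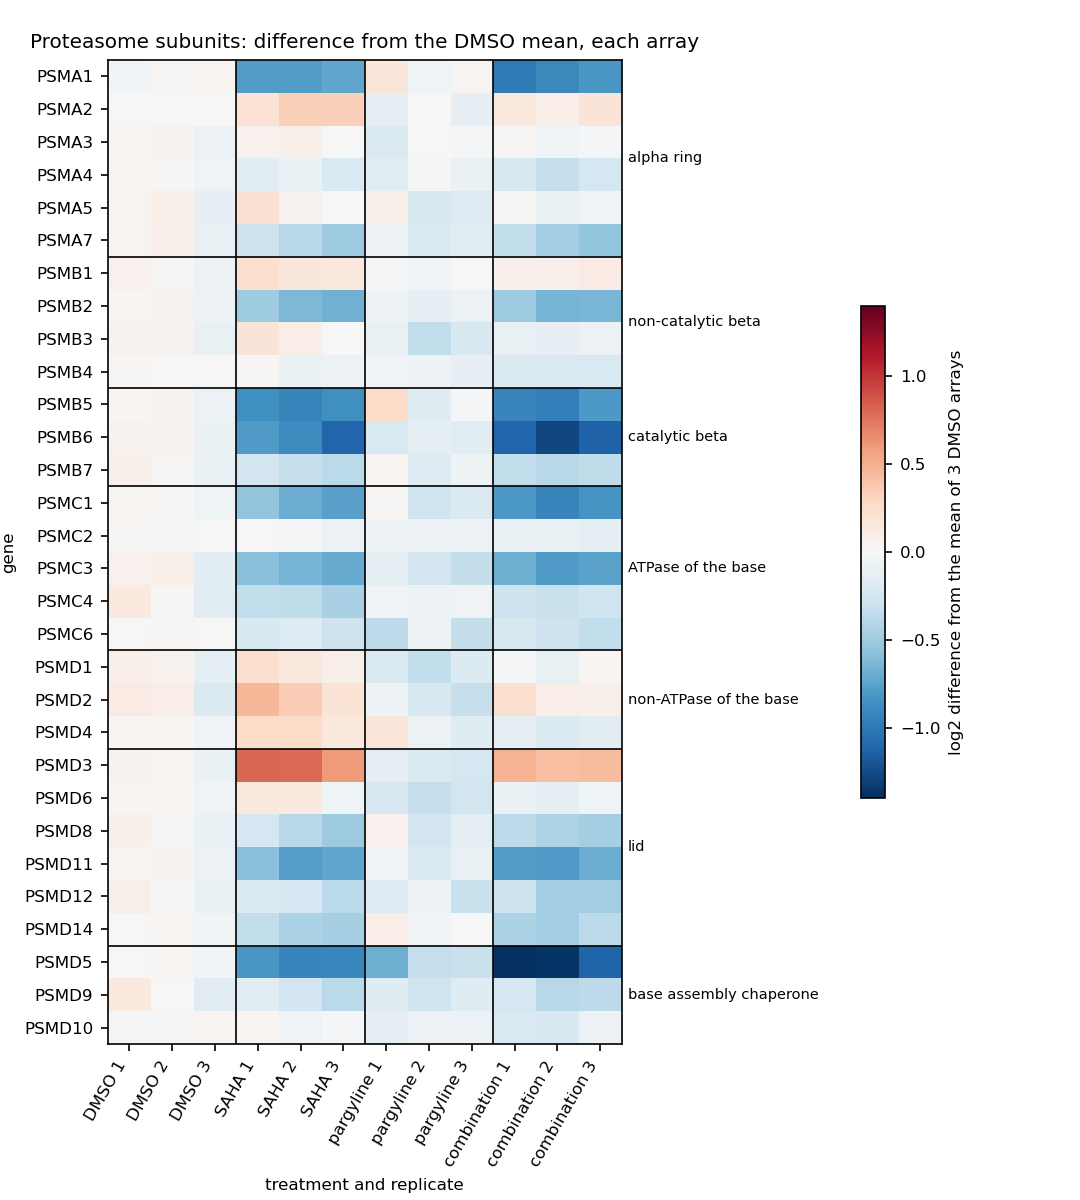
Log2 difference of each of the 30 genes (rows, by role) from its own mean over the 3 DMSO arrays, for each of the 12 arrays (columns); blue is lower and red is higher. PSMB5, PSMB6, PSMA1 and PSMD5 were lower on all SAHA and combination arrays, PSMD3 was higher on all of them, and the pargyline arrays were paler, with PSMD5 the deepest blue among them.

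RefSeq promoter windows (GRCh38.p14, 250 bases before to 50 after a start site) were at hand for 25 of the 30 members and 5 of them are shown, of genes that moved far in either direction, so that the letters around their start sites can be compared. A gene was counted when any of its windows held the motif on either strand. The core of the antioxidant response element, TGACNNNGC, to which NFE2L1 and NFE2L2 bind, occurred in 8 of 25 members (32%) and 16.1% of all 27305 genes. CCAAT, the box of the factor NF-Y, occurred in 14 of 25 members (56%) and 39.7% of all 27305 genes, and the GC box GGGCGG in 15 of 25 members (60%) and 48.3% of all 27305 genes. The E box CACGTG occurred in 2 of 25 members (8%) and 8.78% of all 27305 genes. The CRE TGACGTCA occurred in 0 of 25 members (0%) and 2.25% of all 27305 genes. The antioxidant response element core stood in windows of 5 of 14 members that fell with SAHA, 1 of 3 that rose and 2 of 8 that did not pass. The 250 bases before the start site follow for PSMB5 (chr14:23035221-23035470 on the minus strand, the first of its 2 listed windows), PSMA1 (chr11:14520387-14520636 on the minus strand), PSMC1 (chr14:90256303-90256552 on the plus strand), PSMD5 (chr9:120842923-120843172 on the minus strand) and PSMD3 (chr17:39980557-39980806 on the plus strand). Capitals mark TGACNNNGC and CCAAT on either strand, which share no base in these windows.
PSMB5: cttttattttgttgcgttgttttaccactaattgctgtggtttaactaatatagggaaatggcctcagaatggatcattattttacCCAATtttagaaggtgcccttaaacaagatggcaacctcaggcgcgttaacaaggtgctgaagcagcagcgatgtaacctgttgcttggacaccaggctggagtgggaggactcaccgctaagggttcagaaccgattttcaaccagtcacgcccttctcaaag
PSMA1: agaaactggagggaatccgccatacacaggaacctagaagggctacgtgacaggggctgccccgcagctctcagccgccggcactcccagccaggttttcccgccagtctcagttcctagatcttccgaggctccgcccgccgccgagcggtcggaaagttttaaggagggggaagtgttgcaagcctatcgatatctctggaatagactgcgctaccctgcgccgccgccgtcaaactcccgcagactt
PSMC1: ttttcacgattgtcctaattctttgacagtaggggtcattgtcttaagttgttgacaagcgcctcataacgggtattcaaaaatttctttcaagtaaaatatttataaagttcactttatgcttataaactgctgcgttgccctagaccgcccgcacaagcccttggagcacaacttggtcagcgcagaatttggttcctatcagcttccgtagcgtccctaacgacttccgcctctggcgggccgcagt
PSMD5: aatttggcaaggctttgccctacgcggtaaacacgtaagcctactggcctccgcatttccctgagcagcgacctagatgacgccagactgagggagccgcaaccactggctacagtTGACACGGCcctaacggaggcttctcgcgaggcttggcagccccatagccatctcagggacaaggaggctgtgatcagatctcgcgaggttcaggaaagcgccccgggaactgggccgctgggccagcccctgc
PSMD3: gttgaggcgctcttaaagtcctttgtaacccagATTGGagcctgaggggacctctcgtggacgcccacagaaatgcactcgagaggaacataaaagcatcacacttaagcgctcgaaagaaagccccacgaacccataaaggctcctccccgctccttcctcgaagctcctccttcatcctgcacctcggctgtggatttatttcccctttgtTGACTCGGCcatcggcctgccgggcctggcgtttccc
The element stood once in this stretch of PSMD5, which fell, and once in that of PSMD3, which rose. PSMA1 and PSMC1 held neither motif here, and PSMB5 held 1 CCAAT box. A match is a description of the letters and not evidence of binding.

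All 3 catalytic beta subunits fell with SAHA, where 23.1% of all genes and 36.8% of genes as bright as members fell. PSMB6, which carries the caspase-like activity, read 13.73, 13.73 and 13.60 with DMSO, 12.90, 12.79 and 12.57 with SAHA, 13.47, 13.55 and 13.54 with pargyline, and 12.57, 12.42 and 12.55 with both drugs. The SAHA and combination arrays lay below every DMSO and pargyline array. PSMB6 changed by -0.93 ± 0.08 with SAHA (a log2 change ± its SE, from 3 arrays in each group, limma adjusted p = 6.84e-06), to 52.4% of its DMSO level on the linear scale, and by -1.17 ± 0.08 with both drugs. PSMB5, the chymotrypsin-like subunit that bortezomib binds, read 13.27, 13.30 and 13.17 with DMSO, 12.39, 12.31 and 12.39 with SAHA, 13.51, 13.08 and 13.22 with pargyline, and 12.33, 12.28 and 12.45 with both drugs. It too had no overlap between the SAHA or combination arrays and the rest, and changed by -0.88 ± 0.10 with SAHA (adjusted p = 3.17e-05) and -0.90 ± 0.10 with both. Pargyline left PSMB5 at 0.02 ± 0.10 (95% interval -0.19 to 0.23), and the test did not pass. PSMB7, the trypsin-like subunit, read 13.65, 13.60 and 13.49 with DMSO, 13.31, 13.25 and 13.20 with SAHA, 13.62, 13.40 and 13.50 with pargyline, and 13.24, 13.19 and 13.22 with both drugs. Its change with SAHA was smaller, -0.32 ± 0.06 (adjusted p = 0.00102), and all SAHA arrays again lay below all DMSO arrays.

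Among the non-catalytic beta subunits of the core, PSMB2 fell and PSMB1 rose with SAHA. PSMB2 read 12.64, 12.67 and 12.55 with DMSO, 12.12, 11.99 and 11.95 with SAHA, 12.55, 12.49 and 12.54 with pargyline, and 12.12, 11.97 and 11.98 with both drugs, a change of -0.60 ± 0.06 with SAHA (adjusted p = 1.20e-05) and -0.60 ± 0.06 with both drugs. A dimmer probe set of PSMB2 gave -0.25 with SAHA and did not pass (adjusted p = 0.188 over probe sets). PSMB1 read 14.42, 14.37 and 14.28 with DMSO, 14.59, 14.52 and 14.50 with SAHA, 14.33, 14.30 and 14.35 with pargyline, and 14.43, 14.43 and 14.47 with both drugs. It rose by 0.18 ± 0.04 with SAHA (adjusted p = 0.00353), a call that was lost when each array was centred on its median, where the value was 0.06. PSMB3 (0.09) and PSMB4 (-0.05) did not pass with SAHA, and PSMB4 passed without SAHA replicate 1 (-0.09). PSMB4 fell with both drugs (-0.21 ± 0.03, adjusted p = 0.000354).

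The alpha ring was split. PSMA1 read 13.62, 13.68 and 13.70 with DMSO, 12.89, 12.88 and 12.94 with SAHA, 13.84, 13.61 and 13.70 with pargyline, and 12.68, 12.77 and 12.85 with both drugs. All SAHA and combination arrays lay below all others, and the change was -0.76 ± 0.06 with SAHA (adjusted p = 3.76e-06) and -0.90 ± 0.06 with both. Its 2 other probe sets gave -0.91 and -0.77 with SAHA. PSMA7 fell by 0.40 ± 0.07 and PSMA4 changed by -0.16 ± 0.05 with SAHA. PSMA2 moved the other way and read 13.72, 13.72 and 13.71 with DMSO, 13.93, 14.05 and 14.05 with SAHA, 13.58, 13.73 and 13.60 with pargyline, and 13.85, 13.81 and 13.90 with both drugs. All 3 SAHA arrays of PSMA2 lay above all DMSO arrays, with a rise of 0.29 ± 0.05 (adjusted p = 0.000524), and its other probe set gave 0.63. PSMA3 (0.05) and PSMA5 (0.09) did not pass with SAHA, and 1 or more SAHA arrays of each lay among the DMSO arrays. The call on PSMA4 was lost without DMSO replicate 1 or 2 or SAHA replicate 1 or 3 (adjusted p up to 0.0722, changes from -0.19 to -0.13).

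In the base of the regulatory particle, 4 of 5 measured ATPases fell with SAHA and 2 of the 3 non-ATPase subunits rose. Over all genes 23.1% fell and 23% rose with SAHA, and among genes as bright as members 36.8% fell and 34.6% rose. PSMC1, an ATPase whose tail helps to open the gate of the core, read 12.69, 12.67 and 12.59 with DMSO, 12.10, 11.96 and 11.89 with SAHA, 12.67, 12.37 and 12.45 with pargyline, and 11.84, 11.73 and 11.83 with both drugs, a change of -0.67 ± 0.08 with SAHA (adjusted p = 6.81e-05) and -0.85 ± 0.08 with both drugs. PSMC3, another such ATPase, read 12.62, 12.65 and 12.42 with DMSO, 11.98, 11.91 and 11.86 with SAHA, 12.43, 12.31 and 12.23 with pargyline, and 11.89, 11.78 and 11.82 with both drugs, a change of -0.65 ± 0.07 with SAHA (adjusted p = 3.08e-05). For both genes the SAHA and combination arrays lay below every DMSO and pargyline array. PSMC4 changed by -0.38 ± 0.06 and PSMC6 by -0.23 ± 0.07 with SAHA. The call on PSMC6 was lost without any 1 of the 3 DMSO arrays or SAHA replicate 1 or 3 (adjusted p up to 0.0817, changes from -0.26 to -0.20). PSMC2 did not pass with SAHA (-0.03 ± 0.03, 95% interval -0.09 to 0.03). Its dimmer probe set read 9.96, 9.86 and 9.76 with DMSO, 10.24, 10.01 and 9.89 with SAHA, and 9.33, 9.42 and 9.46 with both drugs. With both probe sets averaged, PSMC2 fell with pargyline (-0.17, limma adjusted p = 0.0449). So averaged, the combination lay below SAHA (-0.36, adjusted p = 0.00184) and SAHA above pargyline (0.25, adjusted p = 0.00205).

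PSMD2, a scaffold subunit of the base that docks ubiquitin carriers, read 12.12, 12.10 and 11.80 with DMSO, 12.47, 12.35 and 12.19 with SAHA, 11.93, 11.78 and 11.68 with pargyline, and 12.22, 12.10 and 12.08 with both drugs. It rose with SAHA by 0.33 ± 0.10 (adjusted p = 0.0234), and PSMD4, a ubiquitin receptor, rose by 0.22 ± 0.08 (adjusted p = 0.039). The related scaffold PSMD1 changed by 0.15 ± 0.07 and did not pass (adjusted p = 0.0914), although all its SAHA arrays lay above all DMSO arrays, and the mean of its 2 probe sets passed (0.15, adjusted p = 0.0335). The rises of PSMD2 and PSMD4 were not called when arrays were centred on their medians (0.22 for PSMD2 and 0.11 for PSMD4). Leaving out DMSO replicate 3 or SAHA replicate 1 or 2 ended the call on PSMD2 (adjusted p up to 0.0886, changes from 0.23 to 0.41). That on PSMD4 also ended without DMSO replicate 1 or 2 (adjusted p up to 0.114, changes from 0.20 to 0.26). The 2 other bright probe sets of PSMD4 gave 0.14 and 0.17, and neither passed over probe sets.

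The lid held both the largest rise and some of the larger falls. PSMD3, a structural lid subunit, read 11.50, 11.49 and 11.36 with DMSO, 12.25, 12.25 and 12.05 with SAHA, 11.32, 11.25 and 11.20 with pargyline, and 11.94, 11.87 and 11.89 with both drugs. Every SAHA and combination array lay above every DMSO and pargyline array. PSMD3 rose by 0.73 ± 0.06 with SAHA (adjusted p = 6.87e-06), to 166% of its DMSO level, and by 0.45 ± 0.06 with both drugs. PSMD11, a lid subunit whose level is known to favour assembly of the full complex, read 12.74, 12.75 and 12.62 with DMSO, 12.12, 11.93 and 11.97 with SAHA, 12.65, 12.51 and 12.60 with pargyline, and 11.93, 11.91 and 12.01 with both drugs, a change of -0.70 ± 0.06 with SAHA (adjusted p = 7.64e-06), and its dimmer probe set gave -0.62. PSMD14, the deubiquitinase that removes chains from substrates, read 13.70, 13.73 and 13.65 with DMSO, 13.35, 13.25 and 13.23 with SAHA, 13.79, 13.64 and 13.69 with pargyline, and 13.25, 13.21 and 13.32 with both drugs, a change of -0.42 ± 0.05 (adjusted p = 5.54e-05). Both genes were lower on all SAHA and combination arrays than on any other array. PSMD8 changed by -0.38 ± 0.09 and PSMD12 by -0.27 ± 0.08 with SAHA, the second lost without DMSO replicate 1 or 2 or SAHA replicate 3 (adjusted p up to 0.0832, changes from -0.32 to -0.21). PSMD6 did not pass (0.07 ± 0.05), except without SAHA replicate 3 (0.14).

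The chaperones that assemble the base were lower or near the DMSO level. PSMD5, also known to hold the base apart from the core, read 11.79, 11.82 and 11.75 with DMSO, 10.97, 10.86 and 10.88 with SAHA, 11.11, 11.46 and 11.47 with pargyline, and 10.28, 10.41 and 10.66 with both drugs. The groups formed 4 separate ranges, with DMSO highest, pargyline next, SAHA below it and the combination lowest. PSMD5 changed by -0.89 ± 0.11 with SAHA (adjusted p = 9.63e-05), -0.44 ± 0.11 with pargyline (adjusted p = 0.0264) and -1.33 ± 0.11 with both (adjusted p = 5.09e-06), to 39.7% of its DMSO level. That with both drugs was the largest change of any member in a comparison with DMSO, each read from its brightest probe set. A second, dim probe set of PSMD5 (mean 2.76) gave -0.04 with both drugs, and the mean of both gave -0.69. PSMD9 changed by -0.27 ± 0.08 with SAHA, but its dimmer probe set gave 0.17, and the mean of both, -0.05, did not pass. Its call was also lost without DMSO replicate 1 or SAHA replicate 3 (adjusted p up to 0.0713, changes from -0.34 to -0.20). PSMD10 (gankyrin), which also binds the retinoblastoma protein, did not pass with SAHA (-0.02 ± 0.04).

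**Figure D2:**
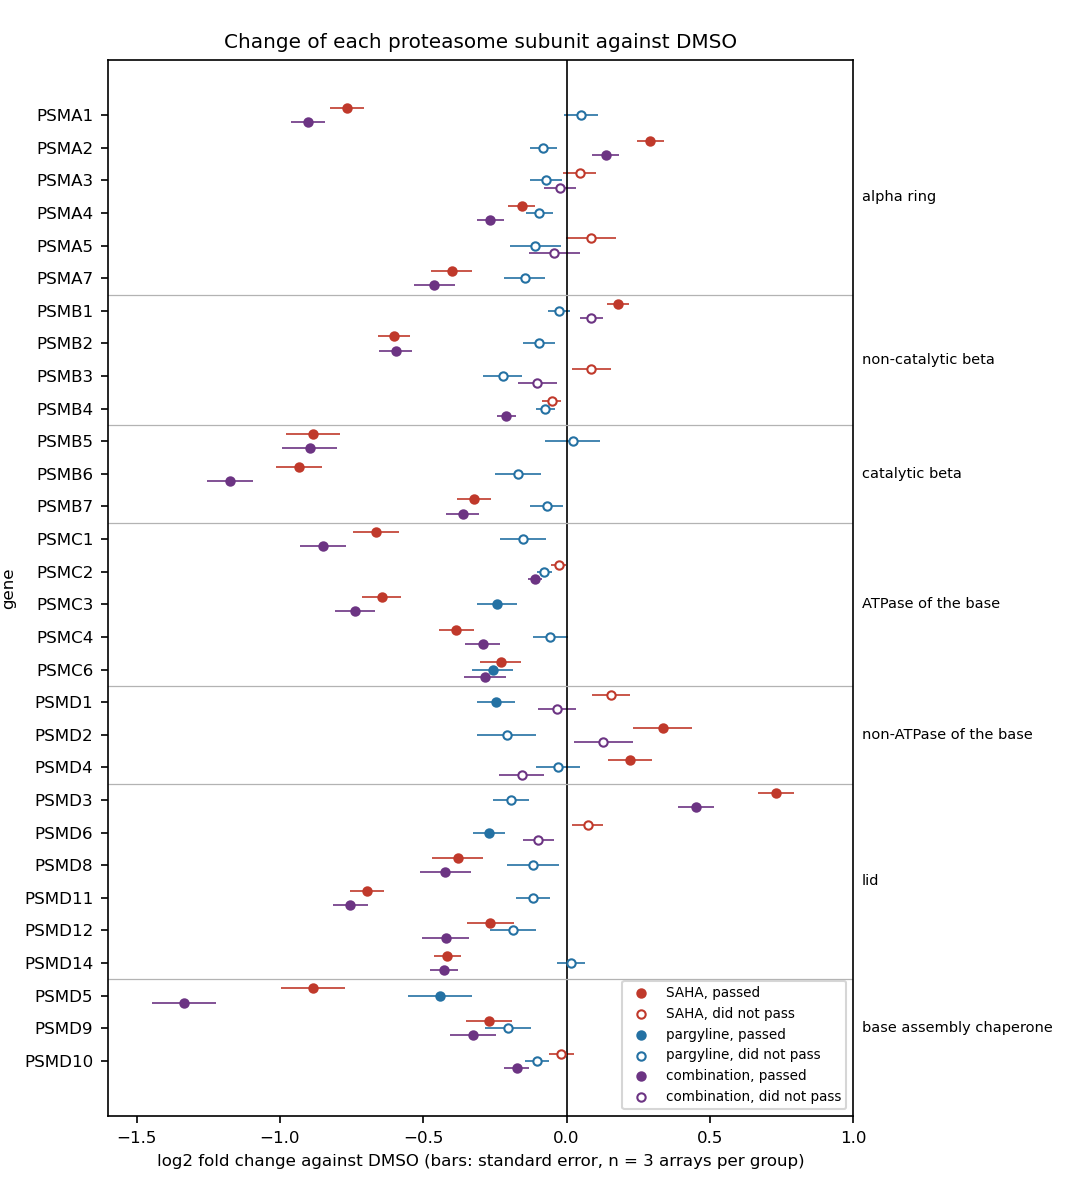
Log2 fold change against DMSO (horizontal axis) of each member (rows, by role) with SAHA, pargyline and both drugs; bars are standard errors of the fit, n = 3 arrays per group, and filled points passed at an adjusted p under 0.05. SAHA and combination points lie near each other for most genes, from -1.33 (PSMD5, combination) to 0.73 (PSMD3, SAHA), and most pargyline points lie a little left of 0.

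Pargyline alone changed fewer members, and all that passed fell. In the core 0 of 13 passed in limma (2 at an unadjusted p under 0.05), and in the regulatory particle 5 of 17 fell and the other 12 did not pass (10 of the 17 at an unadjusted p under 0.05), where 7.45% of all genes fell and 8.48% rose and, among genes as bright as members, 13.6% fell and 11.5% rose. The median change was -0.08 in the core and -0.19 in the regulatory particle, against -0.02 over all genes, and 27 of 30 members had a value below 0, as did 60.3% of all genes. Those that fell were PSMD5 (above), PSMD6 (-0.27 ± 0.05, adjusted p = 0.00925), PSMC6 (-0.26 ± 0.07), PSMD1 (-0.25 ± 0.07) and PSMC3 (-0.24 ± 0.07). PSMD6, a lid subunit, read 13.61, 13.61 and 13.54 with DMSO, 13.73, 13.71 and 13.52 with SAHA, 13.35, 13.26 and 13.32 with pargyline, and 13.49, 13.44 and 13.52 with both drugs, with all pargyline arrays below all others. The largest change of a core member with pargyline was in PSMB3 (-0.22 ± 0.07, adjusted p = 0.0544), which read 13.22, 13.23 and 13.07 with DMSO, 13.35, 13.27 and 13.17 with SAHA, 13.07, 12.83 and 12.96 with pargyline, and 13.07, 13.06 and 13.09 with both drugs. In all, 3 core and 8 regulatory members had their 3 pargyline arrays below the 3 DMSO arrays, as did 15.6% of all genes.

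The counts with pargyline depended on the fit. With replicate number as a block, 1 core and 9 regulatory members fell, where 9.37% of all genes fell. With each array centred on its median, where the median gene lay at -0.15, 10 core and 13 regulatory members fell, where 51.9% of all genes fell, and over all genes 12.3% of calls were upward, against 53.2% without centring. Without DMSO replicate 1 or 2 only 1 regulatory member fell, without pargyline replicate 3 it was 2 and without pargyline replicate 1 or 2 it was 3, and 1 core member (PSMB3) fell without DMSO replicate 3 or pargyline replicate 1. The share of all genes that fell moved too, from 7.45% to 4.19% and 4.00% without DMSO replicate 1 and 2, and to 4.59% without pargyline replicate 3. The call on PSMD6 held without each array in turn. All 4 other calls were lost without DMSO replicate 1 or 2. That on PSMC3 was also lost without pargyline replicate 2 or 3 (-0.31 to -0.20, adjusted p up to 0.149) and that on PSMC6 without DMSO replicate 3 or pargyline replicate 1 or 3 (-0.35 to -0.20, adjusted p up to 0.13). That on PSMD1 was also lost without any 1 of the pargyline arrays (-0.31 to -0.20, adjusted p up to 0.126) and that on PSMD5 without DMSO replicate 3 or pargyline replicate 1 (-0.50 to -0.32, adjusted p up to 0.0846).

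With both drugs, 20 of 30 members fell and 2 rose against the same DMSO arrays. These were 8 of 13 in the core, with 1 rise, and 12 of 17 in the regulatory particle, with 1 rise. Over all genes 24% fell and 24.3% rose, and among genes as bright as members 39.6% fell and 35.1% rose. The median change was -0.27 in the core and -0.29 in the regulatory particle, against -0.01 over all genes. In 22 members all combination arrays lay below all DMSO arrays and in 3 above, as in 36.5% and 29.5% of all genes. All 3 catalytic subunits, all 5 ATPases, 4 of 6 lid subunits and all 3 chaperones fell, while 0 of 3 non-ATPase base subunits passed (PSMD1 -0.03, PSMD2 0.13 and PSMD4 -0.16; 0 at an unadjusted p under 0.05). The 2 rises were in PSMD3 and PSMA2, and that of PSMA2 was small (0.14 ± 0.05, adjusted p = 0.0367), read -0.033 with each array centred on its median, and was lost without any 1 of the DMSO arrays or combination replicate 1 or 3 (0.12 to 0.16). With centring, where the median gene lay at -0.18, 10 core and 15 regulatory members fell, PSMD1 (-0.20) and PSMD4 (-0.33) among them, where 63.9% of all genes fell, and 1 regulatory member, PSMD3, rose. The call on PSMD9 was lost when its probe sets were averaged (-0.06). PSMA6, read from the brighter of the probe sets it shares with PRORP, gave -0.11 with SAHA and -0.18 with both drugs (adjusted p = 0.142 and 0.0168 over probe sets).

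**Figure D3:**
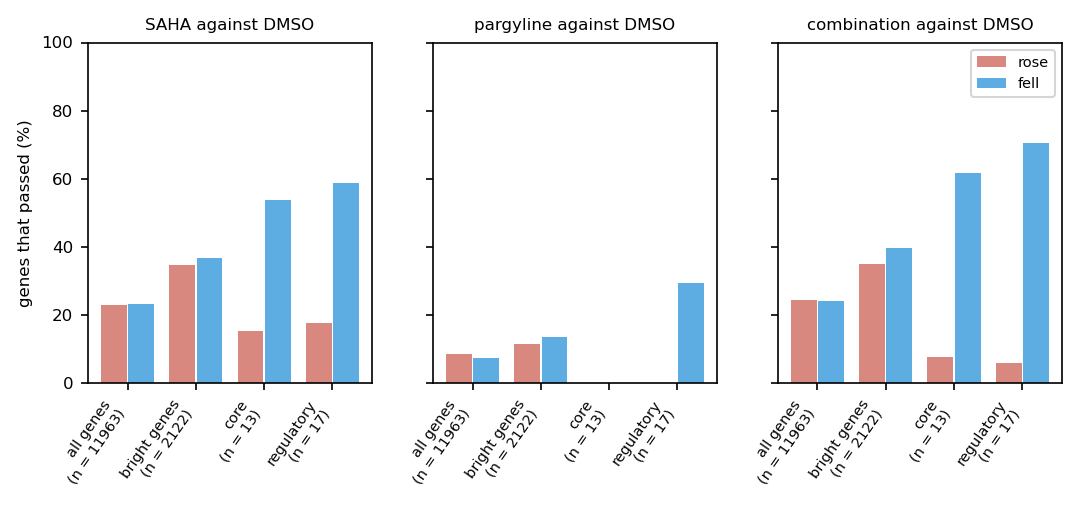
Percent of genes that rose and fell (adjusted p under 0.05, limma) against DMSO with each treatment, for all 11963 genes, the 2122 genes at least as bright as the dimmest member, the 13 core members and the 17 regulatory members. With SAHA and with both drugs the 2 background sets have bars of like height for rises and falls, and both particles have taller bars for falls.

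Against SAHA alone, 28 of 30 members had a lower value with the combination, as did 58.8% of all genes. In the test 1 core and 4 regulatory members fell and the other 25 did not pass (15 of the 30 at an unadjusted p under 0.05), where 8.71% of all genes fell and 7.88% rose. Those that fell were PSMB4 (-0.16 ± 0.03), PSMD3 (-0.28 ± 0.06), PSMD4 (-0.38 ± 0.08), PSMD5 (-0.45 ± 0.11) and PSMD10 (-0.16 ± 0.04), with adjusted p from 0.00953 to 0.0343. With replicate number as a block PSMC2 (-0.08, adjusted p = 0.0463) and PSMD2 (-0.21, adjusted p = 0.0234) passed as well, for 6 regulatory falls, where 10.4% of all genes fell. PSMD4 read 12.41, 12.41 and 12.34 with DMSO, 12.65, 12.65 and 12.53 with SAHA, 12.56, 12.31 and 12.21 with pargyline, and 12.26, 12.19 and 12.24 with both drugs, with all combination arrays below all SAHA arrays. Calls on PSMD5 were lost without 5 of the 6 arrays compared (all but combination replicate 3, -0.55 to -0.36). That on PSMD10 was lost without SAHA replicate 1 or 3 or combination replicate 1 or 2 (-0.20 to -0.13), and that on PSMD3 without SAHA replicate 1 or 2 or combination replicate 2 (-0.35 to -0.24). The number of regulatory falls was 1 without SAHA replicate 1 or combination replicate 2 and 2 without SAHA replicate 2 or combination replicate 1, and core falls were 2 without SAHA replicate 1 or 3. Against pargyline alone more members passed: 8 core and 8 regulatory members fell and 2 and 4 rose, where 23.6% of all genes fell and 23.9% rose. The core count of rises was 1 without pargyline replicate 1 or 2 or any 1 of the combination arrays. The regulatory count of rises was 1 without pargyline replicate 2 or combination replicate 1 and 2 without pargyline replicate 3 or combination replicate 3.

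Whether both drugs together departed from the sum of their single effects was tested in each member. In limma's test of the interaction 0 of 30 passed (1 at an unadjusted p under 0.05, PSMD4), and 1.28% of all genes rose and 2.44% fell in it. Interaction values ran from -0.35 (PSMD4, 95% interval -0.60 to -0.11, adjusted p = 0.124) to 0.20 (PSMC6, -0.03 to 0.43). For the catalytic subunits it was -0.03 (-0.34 to 0.27) in PSMB5, -0.07 (-0.33 to 0.18) in PSMB6 and 0.03 (-0.15 to 0.22) in PSMB7. These intervals bound a departure from the sum and do not show that there was none. Without pargyline replicate 2, PSMC6 passed (0.30).

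The 2 drugs were also set directly against each other, which tests their difference in each gene. SAHA gave lower values than pargyline in 6 core and 7 regulatory members and higher values in 3 and 5, where 22.7% and 23.4% of all genes were lower and higher. The largest differences were in PSMD3 (0.93 ± 0.06, adjusted p = 1.59e-06), PSMB5 (-0.90 ± 0.10), PSMA1 (-0.82 ± 0.06) and PSMB6 (-0.76 ± 0.08). The 3 non-ATPase base subunits were all higher with SAHA than with pargyline: PSMD2 by 0.54 ± 0.10, PSMD1 by 0.40 ± 0.07 and PSMD4 by 0.25 ± 0.08, the last lost without SAHA replicate 1 or 2 or pargyline replicate 2 or 3 (0.18 to 0.35). PSMC6 (0.03, 95% interval -0.13 to 0.19) and PSMD12 (-0.08, -0.26 to 0.10) did not pass, though PSMC6 passed without pargyline replicate 2 (0.12). PSMD12 passed when its probe sets were averaged (-0.17, limma adjusted p = 0.0303).

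The immunoproteasome subunits PSMB8, PSMB9 and PSMB10, which can replace PSMB5, PSMB6 and PSMB7 in the core, also passed with SAHA, PSMB9 higher (2.61 ± 0.16) and PSMB10 (-5.04 ± 0.15) and PSMB8 (-3.15 ± 0.31) lower. PSMB9 with DMSO (3.45 to 3.84) and PSMB10 with SAHA (2.69 to 2.75) lay near the floor, so only the direction of their differences is read.

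**Figure D4:**
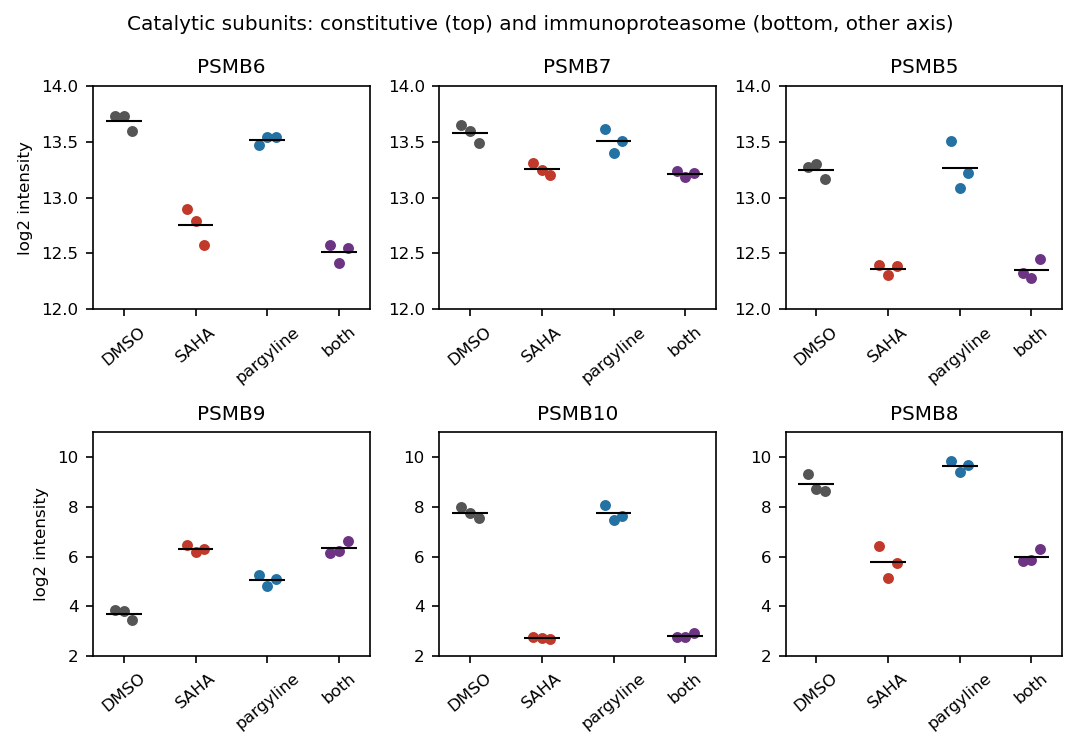
Log2 intensity on each array (points; the line is the mean of 3) of the catalytic subunits PSMB6, PSMB7 and PSMB5 (top) and of PSMB9, PSMB10 and PSMB8, which replace them in the immunoproteasome (bottom), with DMSO, SAHA, pargyline and both drugs. The vertical axes of the rows differ, and levels are not compared between genes. The top genes are lower with SAHA and with both drugs, and below, PSMB9 is higher and PSMB10 and PSMB8 are lower there.

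Other genes of the pathway were taken from lists written with knowledge of earlier results of these data. The counts here and below stand beside these shares of all genes: 23% rose and 23.1% fell with SAHA, 8.48% and 7.45% with pargyline, and 24.3% and 24% with both. No list was tested against these shares. Of 4 measured proteasome activators and inhibitors, 1 rose with SAHA, 1 fell with pargyline, and 2 rose and 1 fell with both (2 rose with SAHA without SAHA replicate 2). PSME1, a subunit of the activator that caps the core in place of the regulatory particle, rose by 0.68 ± 0.07 with SAHA. PSME3 of the nuclear activator fell with pargyline (-0.40 ± 0.08) and with both (-0.60 ± 0.08). The counts with SAHA depended on the probe set. Other probe sets of PSME3 gave -0.56, -0.10 and -0.45 with SAHA, those of PSME4, another activator, 0.75 and 0.08, and that of the inhibitor 0.51. With probe sets averaged, PSME3 fell (-0.31, limma adjusted p = 0.00722) and PSME4 rose (0.33, adjusted p = 0.00113) with SAHA. Of 3 measured assembly factors, 1 rose and 1 fell with SAHA and 2 fell with pargyline and with both. The rise with SAHA and the second fall with pargyline were calls on PSMG2 (0.13 and -0.16), each lost without any 1 of the 6 arrays compared. PSMG1, a chaperone of the alpha ring, changed by -0.61 ± 0.07 with SAHA and -0.84 ± 0.07 with both, while POMP, which matures the core, did not pass with SAHA (0.09 ± 0.05), pargyline (0.02) or both (0.12). With a replicate block POMP passed with SAHA and with both drugs (adjusted p = 0.00848 and 0.00191), and with both it also passed without combination replicate 3 and under 3 other alternatives (0.10 to 0.15). Of 4 measured receptors and deubiquitinases of the regulatory particle, 1 rose and 1 fell with SAHA, and 1 fell with pargyline and with both. The rise with SAHA was that of USP14 (0.15), lost without any 1 DMSO array or SAHA replicate 1 or 3. The other probe set of USP14 gave 0.26 with SAHA (limma adjusted p = 0.0103 over probe sets). The fall with pargyline was that of UCHL5 (-0.20), lost without any 1 DMSO array or pargyline replicate 1 or 3 and with a replicate block, where ADRM1 passed (-0.20, adjusted p = 0.0218). The other probe set of UCHL5 gave -0.39 with pargyline (limma adjusted p = 0.00629 over probe sets). UCHL5, a deubiquitinase, changed by -0.73 ± 0.06 with SAHA and -0.98 ± 0.06 with both, and its receptor ADRM1 did not pass with SAHA (-0.10) or with both (-0.18, though it did without DMSO replicate 3 and with a replicate block).

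Of 9 measured genes around NFE2L1 and NFE2L2, 2 rose and 4 fell with SAHA, 2 rose with pargyline, and 2 rose and 2 fell with both. Rises with SAHA numbered 1 without DMSO replicate 2 or 3 or SAHA replicate 2. NFE2L1, the activator of proteasome genes, read 10.68, 10.81 and 10.60 with DMSO, 9.93, 9.87 and 9.86 with SAHA, 11.16, 10.98 and 11.12 with pargyline, and 10.28, 10.62 and 10.38 with both drugs. The SAHA arrays were the lowest and the pargyline arrays the highest, and the change was -0.81 ± 0.09 with SAHA (adjusted p = 3.17e-05), 0.39 ± 0.09 with pargyline (adjusted p = 0.0146) and -0.27 ± 0.09 with both. Its 2 other probe sets gave -0.82 and -0.79 with SAHA, 0.45 and 0.48 with pargyline, and -0.35 and -0.19 with both drugs. Over probe sets all of these passed except the -0.19. The call with pargyline was lost without DMSO replicate 1 or pargyline replicate 1 or 3 (adjusted p up to 0.0525), which left 1 rise in the list, and that with both without DMSO replicate 1 or 2 or combination replicate 1 or 3 (-0.28 to -0.20, adjusted p up to 0.104), which left 1 fall. NFE2L2, the related antioxidant regulator, did not pass (0.06 with SAHA, -0.01 with pargyline), and KEAP1, its inhibitor, fell with SAHA (-2.32 ± 0.23) and with both (-2.84 ± 0.23). MAFF, a small partner of both factors, rose with SAHA (1.06 ± 0.13), pargyline (0.62 ± 0.13) and both (1.57 ± 0.13). Whether these moves bear on the subunits was not tested.

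Upstream of the proteasome, 4 of 10 genes of the VCP segregase, which pulls ubiquitinated proteins from membranes and complexes, rose and 4 fell with SAHA, 1 fell with pargyline, and 4 rose and 3 fell with both. The fall with pargyline was lost without DMSO replicate 2 or 3 or pargyline replicate 2 or 3, and 3 fell with a replicate block. A dimmer probe set of the gene that fell gave -0.52 with pargyline (limma adjusted p = 0.00261 over probe sets). UBXN1 (0.86 ± 0.11) and UFD1 (0.75 ± 0.07) rose and DERL2 (-0.84 ± 0.05) fell with SAHA. Of 10 measured shuttle and proteotoxic stress genes, 2 rose and 3 fell with SAHA, 2 rose and 1 fell with pargyline, and 3 rose and 3 fell with both. Over all genes 23% rose and 23.1% fell with SAHA, 8.48% and 7.45% with pargyline, and 24.3% and 24% with both. With pargyline 1 gene in place of 2 rose when any 1 of the 6 arrays compared was left out, and the fall was lost without any 1 DMSO array or pargyline replicate 1 or 2. SQSTM1 (p62), an autophagy receptor for ubiquitinated cargo, rose with SAHA (1.24 ± 0.10), pargyline (1.12 ± 0.10) and both (2.06 ± 0.10). ECPAS, a proteasome adaptor and scaffold, fell with SAHA (-2.47 ± 0.15) and both (-2.67 ± 0.15), and ZFAND5, a proteasome activator, rose with SAHA (0.82 ± 0.06). The rise with pargyline that hung on each array was that of ZFAND5 (0.21). Its other probe sets gave 0.35 (limma adjusted p = 0.00523 over probe sets) and, near the floor, -0.01, and the mean of all did not pass (0.18). Of 3 measured ubiquitin and E1 genes, UBA1 rose (0.52 ± 0.07) and UBA6 fell (-0.70 ± 0.13) with SAHA, and the other gene did not pass. Here 0 passed with pargyline in limma (1 at an unadjusted p under 0.05, UBA1, -0.17).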

How the data were processed

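Total RNA of 12 cultures was measured on 22277 probe sets of a 3' expression array. The deposited values are log2 intensities, and RMA (background correction, quantile normalization and probe summary) is named per the submitters' processing notes; its version, and whether all arrays were normalized together, are not given in the sources used here. The values were used as deposited. Probe sets (19064) listed for 1 gene in GEO's platform annotation were kept, 1043 listed for several genes, 2108 for none and 62 controls were left out, and the brightest probe set stood for a gene. All 11963 genes were fitted in 1 model of 4 group means (limma 3.58.1 in R 4.3.3, lmFit and eBayes, two-sided) with Benjamini-Hochberg adjustment over all genes and a threshold of 0.05. The median standard error of a difference was 0.08 over all genes and 0.06 over the members, and the number of arrays limits the precision. The fit was tested on simulated data.

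Members were named by role and every gene of the pathway lists was counted. Genes named from a list are among those with its largest changes against DMSO that passed, and are not typical of it. NFE2L1, NFE2L2, PSMB8, PSMB9, PSMB10, POMP and ADRM1 were named in any case. The members and lists were chosen with earlier results of these data known. Comparisons with DMSO share the same 3 DMSO arrays. Replicate numbers are shared by the groups: of 18 pairs of arrays with the same number, 13 had correlated deviations from the group means above 0.1 (r from 0.08 to 0.53). Every pair was above 0.1 for pargyline against DMSO and for the combination against SAHA. Quantile normalization, centring on array medians, leaving out genes below the lower tertile of brightness, averaging probe sets, a block for the replicate number, weights per array, a prior that was both trended and robust, a threshold of 0.01, fits of the compared groups alone and leaving out each array were the alternatives.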

Additional observations from a re-analysis of the deposited data

Results flagged for a closer look

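In limma's test of the interaction 2 genes of the lists around the constitutive subunits passed. They were 1 of 4 measured activators and inhibitors and 1 of 3 measured immunoproteasome subunits, and no gene of the other lists passed. Over all genes 1.28% rose and 2.44% fell in this test, so the 2 calls are not read as a trait of the lists. PSMB9, the inducible counterpart of PSMB6, had an interaction of -1.33 (adjusted p = 0.0166): it rose by 1.35 with pargyline alone, while pargyline added to SAHA gave 0.03 and did not pass. Its DMSO values, 3.45 to 3.84, lay near the floor of the arrays, so the size of these differences is not read. The interaction of PSMB9 compares such sizes and is not read either. PSME4, which encodes a proteasome activator, had an interaction of 0.42 (adjusted p = 0.0395) on its brightest probe set. There pargyline alone gave 0.09 and pargyline added to SAHA gave 0.50. The interaction was no longer called without any 1 of 10 of the 12 arrays (all but SAHA replicate 1 and combination replicate 3, 0.36 to 0.45). Another probe set of PSME4 (mean 10.74) already rose by 0.75 under SAHA alone and by 0.76 under the combination, where pargyline alone gave 0.04. The dimmest probe set (mean 10.02) gave 0.08, 0.75 and -0.06 in that order. The probe sets thus differed in what pargyline added to SAHA. The 2 probe sets listed for both C7orf25 and PSMA2 lay outside the comparisons. Both were higher with SAHA than with DMSO, one by 0.34 and the other by 0.58, and the latter was higher with both drugs too, by 0.46.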

How the results depend on the processing

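Of 3300 member values under the alternatives, 3062 kept their direction and their side of the threshold, 149 lost a call, 88 gained one, and 1 turned: PSMA2 with both drugs read -0.033 with each array centred on its median. The falls with SAHA and with both drugs stayed within 1.5 times of their counts under every alternative run. With centring, core rises with SAHA went from 2 to 1 and regulatory rises from 3 to 1, core falls with pargyline from 0 to 10 and regulatory falls from 5 to 13, core rises with both drugs from 1 to 0, core falls of the combination against SAHA from 1 to 3, and rises against pargyline from 2 to 1 in the core and from 4 to 1 in the regulatory particle. A threshold of 0.01 gave 1 regulatory rise with SAHA, 1 regulatory fall with pargyline, 0 core rises with both drugs, 0 core and 1 regulatory falls against SAHA, and 1 core and 1 regulatory rises against pargyline. For pargyline against DMSO the replicate block gave 1 core and 9 regulatory falls, array weights 2 and 9, averaged probe sets and a trended, robust prior 1 core fall each, and the compared groups alone 2 regulatory falls. The replicate block moved no other count of members by more than 1.5 times. For the combination against SAHA, core falls numbered 2 with quantile normalization or averaged probe sets, 6 with array weights, and 0 without genes below the lower tertile or with the compared groups alone. Regulatory falls numbered 8 with array weights and 1 with the compared groups alone. Over all genes the falls in that comparison, 1042 in the main fit, stayed within 1.5 times with array weights, quantile normalization or averaged probe sets. Core rises with both drugs numbered 0 without the lower tertile. Core rises of the combination against pargyline numbered 1 with quantile normalization, without the lower tertile, with array weights or with a trended, robust prior. The cause of these shifts was not tested.

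Leaving out 1 array at a time gave 1 to 4 regulatory rises with SAHA, 0 to 1 core and 1 to 5 regulatory falls with pargyline, and 0 to 1 core rises with both drugs. Against SAHA the combination had 1 to 2 core and 1 to 4 regulatory falls, against pargyline 1 to 2 core and 1 to 4 regulatory rises, and in the interaction 0 to 1 regulatory rises. Over all genes, centring took the falls from 2768 to 6037 with SAHA, from 891 to 6208 with pargyline and from 2872 to 7648 with both drugs. Falls with pargyline numbered 1466 with array weights and 355 at a threshold of 0.01, where rises went from 1014 to 592. For the combination against SAHA, 1042 falls and 943 rises became 614 and 616 with the compared groups alone and 499 and 452 at 0.01. In the interaction, 292 falls and 153 rises became 633 and 446 with array weights and 64 and 28 at 0.01, and the replicate block gave 275 rises.

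With 3 arrays per group and a median standard error of 0.06, a change of a member well above that error could be missed. With pargyline, for example, PSMB3 (-0.22), PSMD2 (-0.21) and PSMD9 (-0.21) did not pass. Arrays give no count of molecules, and RMA pulls array distributions together, so a shift shared by most genes cannot be read from these values.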

Other observations

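NFE2L1 was higher with both drugs than with SAHA alone by 0.54 ± 0.09 (limma, adjusted p = 0.00331, n = 3 arrays per group), while PSMB5 (-0.01), PSMB6 (-0.24) and PSMB7 (-0.04) did not pass in that comparison. PSMB6 did pass with each array centred on its median (-0.30), with array weights (-0.29) and without SAHA replicate 3 (-0.33). Of all 30 members 5 fell and 0 rose in that comparison, where 8.71% of all genes fell and 7.88% rose. Whether the level of NFE2L1 bears on any subunit was not tested. The small MAF gene MAFG, a partner of NFE2L1, changed by -0.59 with SAHA, and UBQLN2, a shuttle that carries ubiquitinated proteins to the proteasome, by -0.75.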
